A study of Mus musculus with 2 samples.

Results

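Peptide-hormone enteroendocrine cells were 219 of 4066 kept cells of mouse small intestinal organoids. A cell was counted when the transcripts of 6 peptide hormones (Gcg, Cck, Gip, Ghrl, Nts and Pyy) together reached 20 unique molecular identifiers (UMIs) per 10000 UMIs of the cell (CP10K) and fewer than 2 UMIs of Neurog3 were found. Neurog3 is the transcription factor that marks enteroendocrine progenitors. A barcode was kept as a cell when it showed no fewer than 500 genes and 1000 UMIs and when mitochondrial genes gave 20% of its UMIs or less. The members were thus chosen by the measured levels of those 6 hormones, which are given as a description. The barcodes fell into 2 pools, and the members were 99 of 2300 kept cells in pool 1 (4.30%, 95% Clopper-Pearson interval 3.51 to 5.22) and 120 of 1766 in pool 2 (6.80%, 5.67 to 8.07).

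The study's title concerns melatonin, prostaglandin E2 and a YAP-dependent regenerative epithelium. Organoids are epithelial structures grown in culture from intestinal crypts, and the labels list a control and a melatonin-treated library, both taken on day 3 of culture. Each library held cells pooled from 3 organoid lines, so no line can be followed as a replicate. Libraries were built with droplet-based 3′ chemistry and counted per gene and barcode. The deposited files of the control and the melatonin-treated sample held identical bytes in 3 of 3 files. Both give the same matrix of 31053 genes, 21806 barcodes and 194068573 UMIs, whose barcodes carry the suffix 1 (pool 1) or 2 (pool 2). No label states which suffix belongs to which treatment. The matrix was handled as 1 sample, the order of the pools carries no treatment direction, and no replicate test was possible. Every interval given is a 95% interval for counting error alone. The pools shared 29 barcode sequences, among them 7 kept cells and 1 member.

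Enteroendocrine cells are scattered secretory cells of the gut lining that release hormones when nutrients reach them. Their hormones are made as precursors, packed into dense-core granules with granins and cut by prohormone convertases. The main peptide hormones of the small intestine are cholecystokinin (Cck), which contracts the gallbladder and limits food intake, glucose-dependent insulinotropic polypeptide (Gip), which raises insulin release, and the products of proglucagon (Gcg), among them glucagon-like peptides.

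The starting regions of the 3 hormone genes that led nearly all members are shown because these genes separate the cells described here. The sequences are from RefSeq on GRCm38.p6, read 5′ to 3′ on the strand of the gene and ending at the base before its RefSeq start. Capitals mark every match to CANNTG, the E-box letters that basic helix-loop-helix factors such as Neurod1 can bind.
Gcg (chr2:62483654-62483903, minus strand, 250 bases): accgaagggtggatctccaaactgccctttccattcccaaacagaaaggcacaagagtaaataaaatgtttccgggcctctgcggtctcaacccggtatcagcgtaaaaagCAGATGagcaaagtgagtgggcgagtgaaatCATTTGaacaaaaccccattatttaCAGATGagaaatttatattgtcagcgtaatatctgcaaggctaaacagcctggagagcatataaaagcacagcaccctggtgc
Cck (chr9:121495695-121495944, minus strand, 250 bases): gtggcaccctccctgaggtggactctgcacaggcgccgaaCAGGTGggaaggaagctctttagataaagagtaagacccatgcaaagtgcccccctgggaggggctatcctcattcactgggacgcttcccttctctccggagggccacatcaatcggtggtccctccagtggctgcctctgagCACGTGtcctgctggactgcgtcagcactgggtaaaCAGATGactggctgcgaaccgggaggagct
Gip (chr11:96024295-96024531, plus strand, 237 bases): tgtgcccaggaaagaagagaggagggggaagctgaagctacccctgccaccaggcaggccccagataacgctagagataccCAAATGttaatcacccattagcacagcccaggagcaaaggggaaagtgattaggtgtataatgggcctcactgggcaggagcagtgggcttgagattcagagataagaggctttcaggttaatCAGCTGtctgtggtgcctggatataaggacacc
The Gcg window held 3 matches to CANNTG, of which 2 read CAGATG. The Cck window also held 3, of which 1 read CAGATG. The Gip window held 2 matches and no CAGATG. Of 32851 mouse promoter windows of 250 bases, 66.2% held CANNTG, which reads the same on both strands, and 14.4% held CAGATG on either strand. Such matches are letters in a window and not measured binding.

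Many members carried their hormones at very high levels. The hormone sum was at least 1000 CP10K in 44 of 99 members of pool 1 and 87 of 120 of pool 2, 131 cells whose median was 4024 hormone UMIs in 20508 UMIs. Members just above the threshold, at 20 to 25 CP10K, were 13 cells with a median of 3 hormone UMIs in 1348 UMIs, and 9 of them had a UMI of the granin gene Chgb and 1 a UMI of the secretogranin gene Scg2. Just below it, at 15 to 20 CP10K, lay 42 kept cells with a median of 2 hormone UMIs in 1216 UMIs, of which 22 had a Chgb UMI and 1 a Scg2 UMI. On both sides of the threshold most cells were shallow with a few hormone molecules, and the exceptions with at least 5000 UMIs were 2 cells above it and 4 below. The limit on Neurog3 set aside 27 kept cells that met the hormone threshold, 18 in pool 1 and 9 in pool 2. They had a median hormone level of 47.6 CP10K and a median of 8 Neurog3 UMIs. Of the members, 216 had no Neurog3 UMI and 3, all in pool 1, had 1.

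Depth differed among the members and between the pools. Members held a median of 14406 UMIs in pool 1 (range 1002 to 43775) and 18757 in pool 2 (1051 to 72691). Under 5000 UMIs lay 41 members of pool 1 and 12 of pool 2. The median share of mitochondrial UMIs was 7.39% and 6.33%. A further view, chosen after the data were seen, keeps the 58 and 108 members with at least 5000 UMIs, here called deep members.

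**Figure D1:**
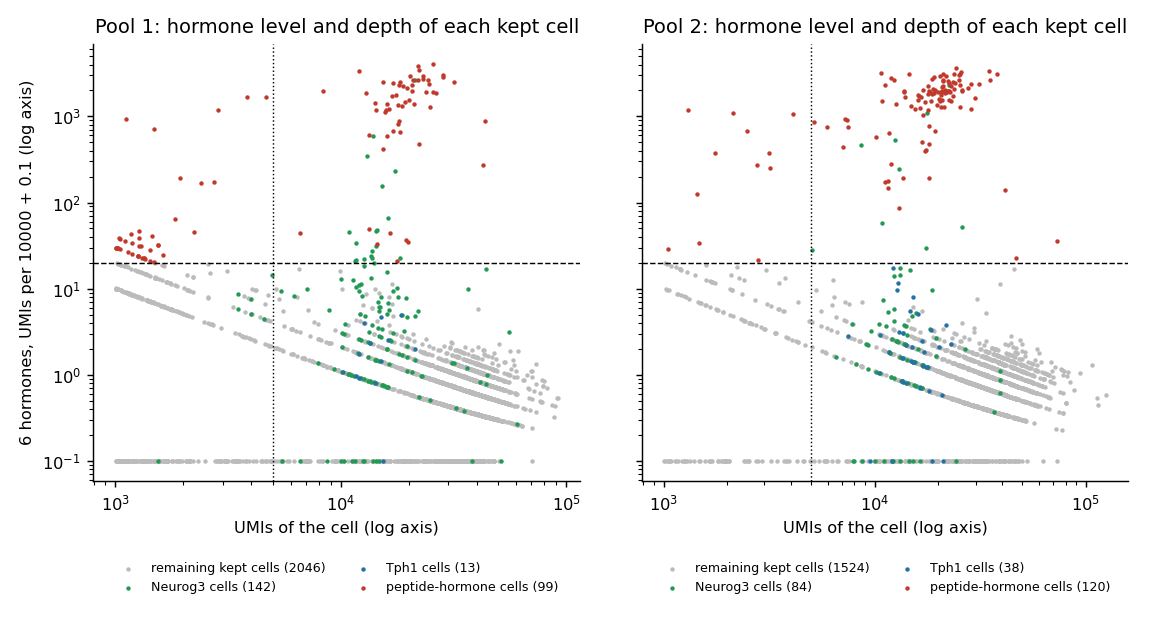
Level of the 6 hormones together (UMIs per 10000, log axis, 0.1 added) against the UMIs of each kept cell (log axis), 1 point per cell and 1 panel per pool. The dashed line is the threshold of 20 CP10K and the dotted line marks 5000 UMIs; 44 of 99 members of pool 1 and 87 of 120 of pool 2 lie at 1000 CP10K or more, and a low-depth group of pool 1 sits just over the threshold.

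The enteroendocrine label was checked on genes the rule had not used. At least 3 of 6 endocrine genes (Chga, Chgb, Scg2, the transcription factor Neurod1, carboxypeptidase E (Cpe) and the convertase Pcsk1) had a UMI in 57 of 58 deep members of pool 1 and 107 of 108 of pool 2. In the remaining kept cells of at least 5000 UMIs, the same was found in 153 of 1709 and 121 of 1387, although their median depth was higher (34744 and 33038 UMIs against 18725.5 and 19766.5). Among all 166 deep members, Cpe had a UMI in 166, secretin (Sct) in 161, Chga in 159, Neurod1 in 158 and Scg2 in 152. Among the 3096 deep remaining cells, Cpe had one in 530, Sct in 413, Chga in 695, Neurod1 in 221 and Scg2 in 85. A single UMI of Chgb sets the members apart less, since it was found in 166 of the 166 but also in 2319 of the 3096. With each cell thinned to 5000 UMIs, Chgb was found in 97.8% of these members and 24.7% of these remaining cells. The label held less well in shallow members, where 9 of 41 in pool 1 and 10 of 12 in pool 2 had 3 of the 6 genes.

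The shallow members included 34 cells, 31 of them in pool 1, with 3 to 6 hormone UMIs in 1002 to 2808 UMIs and a median mitochondrial share of 11.6%. Their Chgb level was 7.23 CP10K in pool 1 and 18.8 in pool 2, beside 4.86 and 19.5 CP10K in the 301 remaining kept cells under 2000 UMIs. Chga had a UMI in 8 of the 34 and in 22 of the 301, and Neurod1 stood at 0.681 against 0.144 CP10K. None had a UMI of Scg2 or Sct, 2 had one of Neurod1 and 1 had one of Cpe. Their level of Fabp1, an absorptive fatty-acid binding protein, was 7.04 CP10K against 10.7 in those remaining cells. Summed over the 34, Cpe stood at 0.227 CP10K, against 0.288 in those remaining cells and 17.7 in the other members under 5000 UMIs. Summed over the pools, Chga and Neurod1 stood above the shallow remaining cells, and Chgb was alike at 8.63 and 8.54 CP10K. Cpe, Scg2 and Sct had a UMI in 10, 6 and 3 of the 301, too few to place the 34 above or below them. Against the other members under 5000 UMIs, Cpe, Scg2, Sct and Chgb were all far lower in the 34. For these 34 cells the label is not settled by their endocrine genes. Of the 34, 15 were led by Cck, 14 by Gip and 5 by Gcg. The other 19 members under 5000 UMIs had 10 to 781 hormone UMIs, Chgb at 63.4, Sct at 19.6 and Scg2 at 4.64 CP10K, with a Chgb UMI in 19 of 19.

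The markers of the class that lay outside the rule, Scg2 and Sct, were high in members of both pools. Scg2 had a UMI in 55.6% of members in pool 1 and 89.2% in pool 2. After each cell was thinned to 2000 UMIs, which leaves 64 and 115 members, the shares were 69.3% and 74.6%. In the remaining kept cells, with median depths of 31974 and 31341 UMIs, the thinned shares were 0.198% and 0.275% and the unthinned shares 2.05% and 3.35%. The members thus carried Scg2 at a thinned share far above that of the other epithelium, although they were the shallower cells. For Sct the thinned shares of members were 69.1% and 72.0%, against 2.24% and 1.71% in remaining cells.

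Hormone transcripts took up a large part of the RNA of these cells. In deep members the 6 hormones made up a median of 16.2% of all UMIs in pool 1 (range 0.209 to 40.7) and 18.6% in pool 2 (0.223 to 36.4). The 3′ library counts molecules at the end of the transcript, so UMIs of different hormones were set side by side without a length correction. Over all members Cck gave 65.2% and 71.6% of hormone UMIs, Gip 23.4% and 13.4%, Gcg 6.82% and 10.6%, and ghrelin (Ghrl), the appetite-raising hormone, 3.81% and 3.87%. Neurotensin (Nts) gave 0.587% and 0.271%, and peptide YY (Pyy), a satiety hormone of the lower gut, 0.177% and 0.281%. Cck was the main hormone in both pools and Pyy and Nts were minor ones.

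The members held nearly all UMIs of some hormone genes in the kept cells but not of others. For Gcg the shares were 97.8% and 98.8% of all UMIs in kept cells, for Cck 97.4% and 98.3%, and for Gip 96.8% and 97.4%. For Ghrl they were 51.2% and 69.6%, and the Neurog3 cells that the rule sets aside held another 46.7% and 29.1%, in 24 and 17 cells with a UMI. Outside the rule, Scg2 lay 95.7% and 96.0% in members. Chgb lay only 5.93% and 10.7% there. Low counts of Cck were found widely: 57.0% and 74.0% of remaining kept cells had a Cck UMI, and 8.17% and 11.6% did when thinned to 2000 UMIs, against 91.1% and 96.4% of members. Cck is a hormone of the rule, so this contrast follows from the choice of members.

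Each member was assigned to the hormone with most UMIs. Cck led 64 of 99 members in pool 1 (64.6%, 54.4 to 74.0) and 95 of 120 in pool 2 (79.2%, 70.8 to 86.0). Gip led 28 in pool 1 (28.3%, 19.7 to 38.2) and 18 in pool 2 (15%, 9.14 to 22.7). Gcg led 6 and 4 members, Ghrl 0 and 2, Nts 1 and 1, and Pyy none. Pool 1 thus had the lower Cck-led share, with intervals that overlap. In deep members Cck led 46 of 58 (79.3%, 66.6 to 88.8) in pool 1 and 86 of 108 (79.6%, 70.8 to 86.8) in pool 2, and Gip led 10 (17.2%, 8.59 to 29.4) and 15 (13.9%, 7.99 to 21.9). The difference between pools in the Cck-led share was therefore small once shallow cells were set aside. A tie between hormones occurred in 4 members, all shallow cells of pool 1, and was given to the first in the order Gcg, Cck, Gip, Ghrl, Nts, Pyy. Of the 6 Gcg-led cells of pool 1, 3 were such ties.

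**Figure D2:**
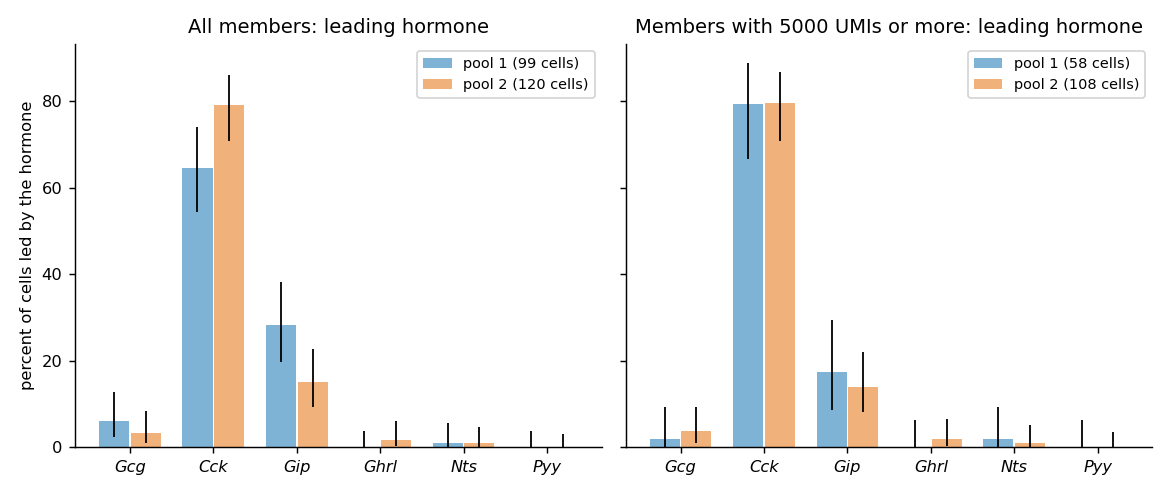
Percent of members led by each hormone in pool 1 and pool 2, for all members (left) and for those with 5000 UMIs or more (right). Bars are shares and black lines their 95% Clopper-Pearson intervals; Cck leads most cells in both pools, and the pools are closer at 5000 UMIs or more (79.3% and 79.6%) than over all members (64.6% and 79.2%).

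Levels within a leading group varied over a wide range. Cck in deep Cck-led cells ran from 19.2 CP10K over a median of 1220 to 3019 in pool 1, and from 15.9 over 1511 to 3094 in pool 2. Gip in deep Gip-led cells ran from 31.2 over 2584 to 4057 in pool 1, and from 141 over 1605 to 3090 in pool 2. The 6 hormones made up a median of 15% and 18.6% of the UMIs of deep Cck-led cells and 25.9% and 19.95% of those of deep Gip-led cells.

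Members commonly carried several hormone transcripts. Of the 166 deep members, 147 had Cck at 20 CP10K or more, 81 Gcg, 67 Sct, 61 Ghrl, 40 Gip, 13 Pyy, 11 the tachykinin gene Tac1 and 4 Nts. All 81 cells with Gcg at that level also had Cck, as did 60 of 61 with Ghrl, 66 of 67 with Sct, 13 of 13 with Pyy and 11 of 11 with Tac1. Gip behaved differently: 26 of 40 Gip cells had Cck, 12 had Gcg and 4 had Ghrl. By pool, Cck was found in 6 of 14 and 20 of 26 Gip cells, Gcg in 3 and 9 and Ghrl in 1 and 3. Counting the 6 hormones of the rule, 50 cells had 1 at that level, 56 had 2, 49 had 3, 8 had 4, 1 had 5 and 2 had none. The commonest combinations were Gcg with Cck and Ghrl in 34 cells (20.5%), Cck alone in 33 (19.9%), Gcg with Cck in 27 (16.3%), Cck with Ghrl in 15 and Gip alone in 14 (8.43%). These levels belong to single barcodes, and the part played by doublets or free RNA was not tested.

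**Figure D3:**
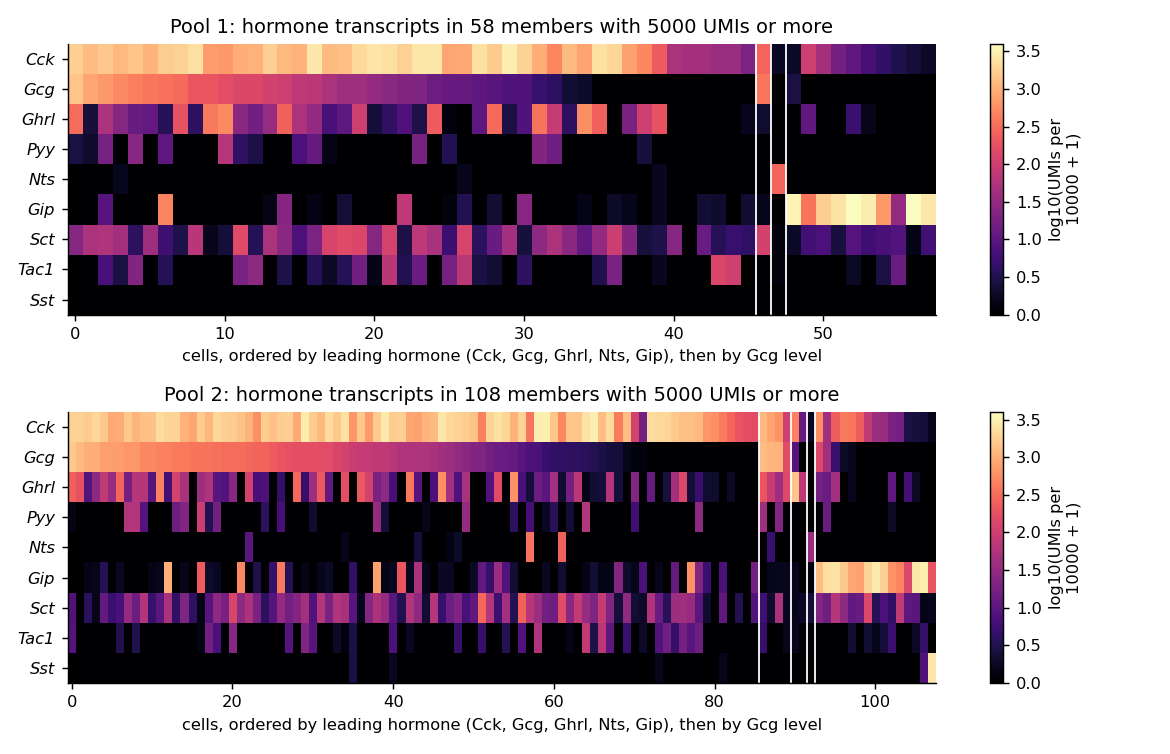
Transcripts of 9 peptide genes in the 58 and 108 deep members of pool 1 and pool 2, 1 column per cell, colored by log10 of UMIs per 10000 plus 1. Cells are ordered by leading hormone and then by Gcg, with white lines between leading hormones; Gcg and Ghrl lie mostly on cells with Cck, and most cells of the Gip-led block at the right have little of either.

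Cck-led deep cells were then set side by side by whether Gcg reached 20 CP10K, a split chosen after the values had been seen. The cells with and without it numbered 23 and 23 in pool 1 and 51 and 35 in pool 2, and their median depths were alike within each pool (19699 and 17934 UMIs, 20632 and 20569 UMIs). Median Cck was 1428 against 859 CP10K in pool 1 and 1646 against 1354 in pool 2. Median Ghrl was 23.1 against 3.07 CP10K and 23.8 against 1.41, and Ghrl reached 20 CP10K in 12 of 23 against 8 of 23 cells and in 26 of 51 against 8 of 35. The cells with Gcg had the higher median of both hormones in both pools, although summed Ghrl was 80.7 against 89.0 CP10K in pool 1 and 87.5 against 32.9 in pool 2. The group without Gcg in pool 1 held 6 cells with a hormone sum under 50 CP10K and no Scg2 UMI. Without those cells, and 1 cell of pool 2 with a hormone sum under 50 CP10K, median Cck was 1428 against 1207 and 1646 against 1357 CP10K, and median Ghrl 23.1 against 17.8 and 23.8 against 1.41. Median Etv1, an ETS-family transcription factor, was then 4.83 against 3.90 and 4.94 against 1.99 CP10K, and Chgb 69.1 against 22.8 and 80.4 against 47.7. Scg2 went in opposite directions, at 12.5 against 14.7 CP10K in pool 1 and 16.3 against 9.51 in pool 2, although over all deep Cck-led cells it was 12.5 against 8.54 and 16.3 against 9.42. Sct was 25.9 against 25.8 and 13.8 against 19.4 CP10K.

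The members were next compared with the 3570 remaining kept cells, after setting aside 226 Neurog3 cells (at least 2 Neurog3 UMIs) and 51 cells with Tph1, the serotonin-synthesis enzyme of enterochromaffin cells, at 20 CP10K or more. UMIs were summed per class and pool and scaled to 1000000 UMIs of the class (CPM). A gene was called when the Poisson intervals of both classes lay apart and the ratio was at least 2-fold in the same direction in both pools. Ratios are on the log2(CPM + 1) scale, and where 2 are given the first is of pool 1. Of 15220 genes with enough counts, 2096 were higher (13.8%) and 976 lower (6.41%) in members. With the 6 hormones left out of each cell's total, 2790 were higher and 654 lower, and the median of all genes moved from 0.17 and 0.16 to 0.40 and 0.38. The class of remaining cells also held some cells rich in granins, with up to 1273 and 1387 CP10K over the 12 genes of the granin list.

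The granins and processing enzymes of hormone granules were higher in members for 10 of 12 genes listed, with median ratios of 4.25 and 4.99 beside 0.17 and 0.16 over all genes tested. Scg2 stood at 1214 CPM against 0.795 in pool 1 and 1381 against 1.08 in pool 2, ratios of 9.40 and 9.37, the farthest apart of any gene outside the hormones of the rule. Cpe, which trims the ends of cut prohormones, stood at 2432 against 20.04 CPM (6.85) and 2795 against 18.5 (7.16). Pcsk1, which cuts prohormones, stood at 412 against 18.1 CPM (4.44) and 457 against 13.7 (4.96). Chgb was higher by a smaller ratio, at 8864 against 1442 CPM (2.62) and 8355 against 1322 (2.66). In pool 1, 3 cells held 40.2% of its UMIs, and members at 50 CP10K or more, a limit applied after the data were seen, stood at 5754 CPM (1.996) and 8813 (2.74). Chga, the general granin marker, was not called: it stood at 947 against 309 CPM (1.61) and 589 against 339 (0.79), and 3 cells of pool 1 held 57.3% of its UMIs there.

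Of 13 other gut peptides tested, 6 were higher. Sct stood at 3092 against 8.45 CPM (8.36) and 2752 against 6.56 (8.51). Tac1 stood at 932 against 167 CPM (2.47) and 443 against 147 (1.58). Gastrin (Gast) stood at 530 against 0.570 CPM (8.40) and 69.1 against 0.170 (5.91), with 73.6% and 66.4% of its member UMIs in 3 cells of each pool. Insl5, Iapp and Gal were the other 3 that were higher.

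Transcription factors of the enteroendocrine lineage were higher for 21 of 26 genes, with median ratios of 3.69 and 3.57. Isl1, a LIM homeodomain factor, stood at 187 against 0.639 CPM (6.84) and 266 against 0.234 (7.76). Etv1 stood at 323 against 0.743 CPM (7.54) and 355 against 0.573 (7.82). The homeodomain factor Onecut3 had ratios of 6.75 and 6.69, and Pax6, which activates the proglucagon gene, 5.75 and 6.62. Neurod1, which acts after Neurog3, stood at 388 against 10.5 CPM (5.08) and 460 against 8.05 (5.67). Factors shared by several endocrine types were also higher, such as Insm1 (4.73 and 5.26), Nkx2-2 (4.09 and 4.21) and Rfx6 (4.07 and 4.32).

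Nutrient and hormone sensors were higher for 17 of 20 genes tested. Ffar1, a receptor for long-chain fatty acids, stood at 139 against 0.0518 CPM (7.06) and 121 against 0.106 (6.79). Abcc8, the sulfonylurea-binding part of the ATP-sensitive potassium channel, had ratios of 6.62 and 7.01, and Kcnj11, the channel's pore, 3.93 and 4.21. Gpr119, a receptor for fatty-acid amides, stood at 31.1 against 0.173 CPM (4.78) and 25.9 against 0.0637 (4.66). Ffar2, a receptor for short-chain fatty acids, stood at 90.1 against 4.28 CPM (4.11) and 65.5 against 4.37 (3.63). Casr, the calcium-sensing receptor, had too few counts to be tested, with 3 and 6 UMIs in members and 0 in remaining cells; with no count filter 18 sensors were higher. The vesicle release list was higher for 16 of 18 genes, such as the calcium sensor Syt7 (4.31 and 4.31) and the priming factor Cadps (4.90 and 4.44). Of 17 genes of this list tested, 1 was higher and 3 lower against Tph1 cells, and 0 higher and 1 lower against Neurog3 cells.

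Further genes among the largest ratios were Rbp4, a retinol carrier, at 1168 against 1.76 CPM (8.73) and 1199 against 1.61 (8.84), Lect2, a secreted hepatokine, with ratios of 7.13 and 7.45, the calcium-binding secretagogin gene Scgn (7.08 and 7.35) and the adhesion receptor Adgrg4 (6.69 and 7.48). Serpina1c had ratios of 7.37 and 6.27, and belongs to a family of near-identical copies among which its reads could be split. Among the lowest were S100g, the calcium buffer of absorptive cells, at 12.3 against 259 CPM (-4.29) and 43.2 against 886 (-4.33), and Fabp1 at 125 against 1573 CPM (-3.65) and 56.0 against 2814 (-5.63). Proliferation genes were lower for 9 of 10, such as Mki67 at 20.5 against 143 CPM (-2.74) and 15.01 against 122 (-2.94), and crypt stem genes for 4 of 6, such as Lgr5, an R-spondin receptor of stem cells (-3.06 and -2.11). None of 13 YAP targets tested was called in either direction, but 1 was higher with the hormones left out of the total, at a 10% mitochondrial limit or without cells with other types' genes, and 1 was lower without Nts-led cells.

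Genes of other epithelial types were also found in members. Of 9 enterocyte genes, 6 were lower and the brush-border disaccharidase Sis was higher, at 809 against 271 CPM (1.57) and 632 against 277 (1.19). Of 7 goblet genes, 4 were higher. Tff3, a trefoil peptide of goblet cells, stood at 2042 against 200 CPM (3.35) and 1524 against 538 (1.5), and Agr2, a disulfide isomerase of secretory cells, at 765 against 83.7 (3.18) and 945 against 103 (3.19). The summed goblet level was 38.8 and 35.9 CP10K in members against 5.13 and 11.5 in remaining cells, with Zg16 and Clca1 at 0 and Muc2, the mucin that defines goblet cells, at 1 and 4 UMIs. Of 6 Paneth genes, 3 were higher, among them Lyz1 and Defa24, a defensin whose reads near-identical copies could share, and the summed level was 12.1 and 23.9 against 6.94 and 11.9 CP10K. A few cells carried that sum, since 3 cells held 83.1% and 66.0% of the Defa24 UMIs and the median per cell was 2.39 and 2.39 CP10K in members beside 2.34 and 2.13 in remaining cells. For the goblet genes the medians were 12.1 and 15.5 beside 1.08 and 0.712 CP10K. Tff3 had a UMI in 44 of 46 deep Cck-led cells of pool 1 and 82 of 86 of pool 2, and in 730 of 1709 and 548 of 1387 deep remaining cells. Thinned to 5000 UMIs, these shares were 87.7% and 85.4% against 14.6% and 13.1%. A UMI of Sis was common in both, in 44 of 46 and 85 of 86 against 1571 of 1709 and 1037 of 1387, and the thinned shares were 91.1% and 90.2% against 56.9% and 39.1%. Summed immune markers were 0.00819 and 0.00910 CP10K, with 4 of 5 genes at 0. At least 20 CP10K of other epithelial types' genes were found in 21 members of pool 1 and 25 of pool 2, counted over 10 genes that include Sis, Spink4, Lyz1 and Defa24. Without these members, and with the remaining cells kept whole, 6 enterocyte genes were still lower and Sis was no longer called, 2 goblet genes (Tff3 and Agr2) and 2 Paneth genes (Lyz1 and Ang4) were higher, and 1 Paneth gene (Itln1) was lower. The summed Paneth level was then 4.57 and 3.42 CP10K. With such cells left out of the remaining cells as well, 3 enterocyte genes were lower and 1 was higher, and 3 of 6 goblet genes tested were higher. The cells left out were picked on genes of these lists. Changes in those genes and in the Paneth sum therefore follow in part from that choice.

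**Figure D4:**
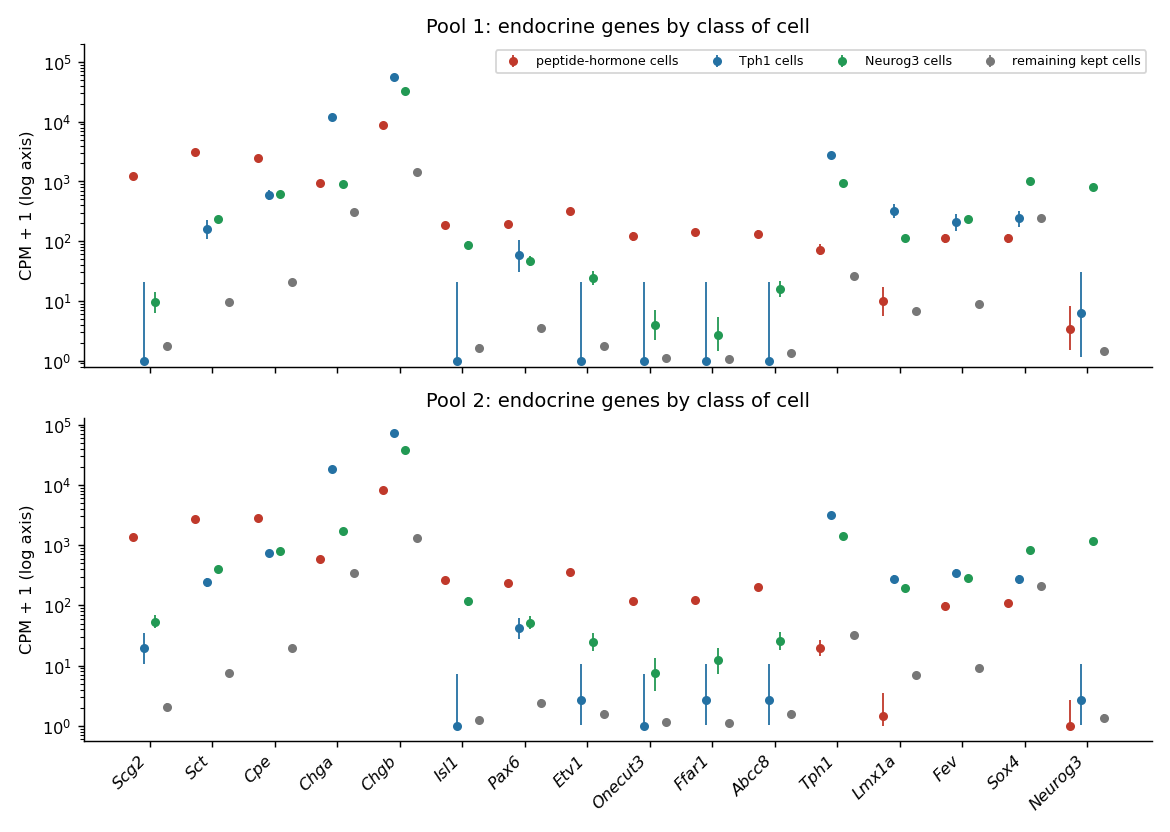
Levels (CPM + 1, log axis) of 16 endocrine genes in the 4 classes of kept cells, for pool 1 (top) and pool 2 (bottom), with 95% Poisson intervals as vertical lines. Members stand highest for Scg2, Sct, Cpe, Isl1, Pax6, Etv1, Onecut3, Ffar1 and Abcc8 in both pools, and Tph1 cells for Chga, Chgb, Tph1 and Lmx1a.

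The Tph1 cells, 13 in pool 1 and 38 in pool 2, had a depth close to that of members (medians 14217 and 14992.5 UMIs). Of 11302 genes tested, 144 were higher (1.27%) and 335 lower (2.96%) in members. Granins split between the types. Chga stood at 947 CPM in members against 11896 in Tph1 cells of pool 1 (-3.65) and 589 against 18623 in pool 2 (-4.98), and Chgb was lower in members by 2.67 and 3.12 on the log2 scale. Scg2 stood at 1214 CPM against 0 UMIs in pool 1, at least 76.1-fold higher over the limit of 3 UMIs, and 1381 against 19.0 in pool 2 (6.11). Cpe was also higher in members (2.05 and 1.89).

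The transcription factors split likewise, with 7 of 25 higher and 7 lower. Isl1 had no UMI in Tph1 cells of either pool, so that members were at least 11.7-fold and 51.4-fold higher. The same held for Onecut3 (at least 7.50-fold and 22.7-fold) and Lect2 (14.8-fold and 52.3-fold). Etv1 had 0 UMIs in Tph1 cells of pool 1 and 1.73 CPM in pool 2, against 323 and 355 CPM in members. Lmx1a, a factor of serotonin-producing cells, was lower in members, at 9.01 against 319 CPM (-5.00) and 0.455 against 273 (-7.56). Sensors split too, with 6 of 20 higher and 4 lower. The fatty-acid receptor Ffar1 and the channel gene Abcc8 were higher in members. The irritant channel Trpa1 was lower, at 9.83 against 309 CPM (-4.84) and 3.64 against 294 (-5.99), and Ffar2 was also lower. Tac1 was lower in members (-3.06 and -4.42), as was Ucn3, a peptide of the corticotropin-releasing family (-6.20 and -5.82). Neurod1 was not called, at 388 against 325 CPM and 460 against 466.

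Against the 142 and 84 Neurog3 cells, 236 of 12323 genes were higher (1.92%) and 319 lower (2.59%) in members. Neurog3 separates these classes by rule. Scg2 stood at 1214 against 8.57 CPM (6.99) and 1381 against 52.9 (4.68), Etv1 at 323 against 23.1 (3.75) and 355 against 24.1 (3.83), and Ffar1 had ratios of 5.69 and 3.32. Of 20 sensors tested, 11 were higher and 1 lower. Of 26 transcription factors, 6 were higher, among them Pax6 (2.04 and 2.18) and Isl1 (1.12 and 1.19), and 9 lower, among them Sox4, a progenitor factor (-3.20 and -2.94), Pax4, an early endocrine factor (-2.18 and -3.73), Insm1 (-1.26 and -1.38) and Fev (-1.06 and -1.53). Chgb was lower (-1.91 and -2.21), as was Tph1 (-3.71 and -6.17). Of the Neurog3 cells, 27 of 142 and 33 of 84 also had Tph1 at 20 CP10K or more, against 1 and 0 members. The contrast is thus in part with cells high in Tph1. Ghrl, a hormone of the rule, was not called, at 6288 against 2996 CPM (1.07) and 6837 against 5042 (0.44).

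Gip-led members differed from the other members in genes beyond the hormones that sorted them. Of 10873 genes tested, 78 were higher (0.717%) and 76 lower (0.699%) in Gip-led members. Among deep members the counts were 86 higher (0.796%) and 77 lower (0.713%) of 10803. Fabp5, a fatty-acid binding protein, stood at 7658 CPM against 1014 in pool 1 (2.92) and 6697 against 993 in pool 2 (2.75). In deep cells its median was 92.3 and 59.4 CP10K in Gip-led against 2.88 and 1.95 in Cck-led cells. The groups overlap: Gip-led cells ran from 9.02 to 144 in pool 1 and 5.01 to 160 in pool 2, and Cck-led cells reached 123 and 121.

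The cannabinoid receptor gene Cnr1 stood at 215 against 7.02 CPM (4.75) and 326 against 24.9 (3.66), and had a UMI in 7 of 10 and 13 of 15 deep Gip-led cells against 2 of 46 and 17 of 86 deep Cck-led cells. Rgs4, which shortens G-protein signals, stood at 130 against 3.01 CPM (5.03) and 165 against 3.12 (5.33), and had a UMI in 7 of 10 and 13 of 15 against 2 of 46 and 3 of 86. Rcn1, a calcium-binding protein of the endoplasmic reticulum (3.45 and 2.83), and Dbpht2 (2.82 and 3.12) were the others named by the rule. Rfx6, a factor needed for endocrine cell formation, stood at 232 against 29.1 CPM (2.96) and 179 against 48.8 (1.86), with a UMI in 10 of 10 and 15 of 15 deep Gip-led cells against 17 of 46 and 39 of 86. The galanin receptor gene Galr1 (2.26 and 2.02), the absorptive lipid genes Fabp1 (2.75 and 1.84) and Rbp2, a retinol binding protein (3.28 and 2.61), and the factor Egr3 were also higher.

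In the other direction, Agr2 and its relative Agr3 were absent from the counts of deep Gip-led cells. Agr2 had a UMI in 0 of 10 and 0 of 15 of them, against 30 of 46 and 52 of 86 deep Cck-led cells, which were at least 64.5-fold and 105-fold higher over a limit of 3 UMIs in the Gip-led group. Agr3 had a UMI in 21 of 46 and 41 of 86 deep Cck-led cells and none in Gip-led cells. Over all members, Agr2 stood at 40.2 CPM in Gip-led cells against 927 in the others in pool 1 (-4.49) and 3.66 against 1079 in pool 2 (-7.86). Onecut3 stood at 8.94 against 144 CPM (-3.87) and 3.66 against 134 (-4.85), with a UMI in 1 of 10 and 1 of 15 deep Gip-led cells. Etv1 stood at 31.3 against 388 CPM (-3.59) and 117 against 389 (-1.72), and Scg2 at 447 against 1387 (-1.63) and 637 against 1487 (-1.22). Fatty-acid receptors were lower in Gip-led members, Ffar2 by 3.46 and 2.63 and Ffar1 by 2.15 and 1.14 on the log2 scale. Median Scg2 in deep cells was 5.17 and 6.48 CP10K in Gip-led against 11.5 and 13.3 in Cck-led cells.

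**Figure D5:**
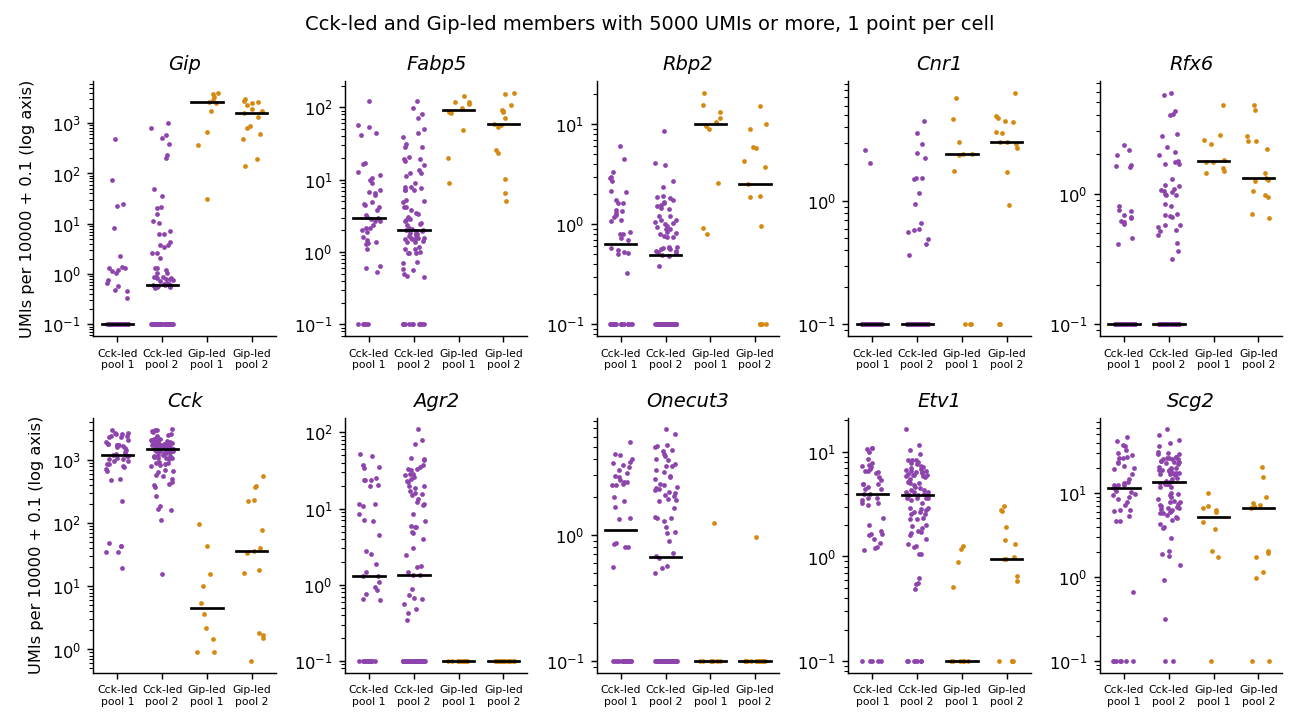
Levels of 10 genes (UMIs per 10000, log axis, 0.1 added) in deep Cck-led cells (46 and 86) and deep Gip-led cells (10 and 15) of both pools, 1 point per cell, with the median as a bar. Gip and Cck sorted the cells; Fabp5, Rbp2, Cnr1 and Rfx6 have higher medians in Gip-led cells, and Agr2, Onecut3, Etv1 and Scg2 have lower ones.

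Cck-led members had 44 genes higher (0.405%) and 111 lower (1.02%) than the other members, and among deep members 43 (0.398%) and 116 (1.07%). Agr3 stood at 116 CPM against 0 UMIs in pool 1 and 157 against 2.23 CPM in pool 2 (5.61), and Agr2 (3.13 and 5.20), Onecut3 (4.31 and 5.52) and Ffar2 (3.36 and 2.47) were higher as in the comparison above, with which this one shares cells. Tac1 stood at 1190 against 106 CPM (3.47) and 538 against 71.4 (2.90), with 56.6% and 48.5% of its Cck-led UMIs in 3 cells of each pool. At 50 CP10K or more it stood at 787 against 32.0 CPM and 548 against 82.5. Gast stood at 693 against 10.3 CPM (5.94) and 83.4 against 13.4 (2.55), with a UMI in 26 of 46 and 30 of 86 deep cells and 83.5% and 69.2% of those UMIs in the 3 highest cells. The lowest genes named by the rule, Crct1, Msln and Anxa3, came from a pair of Nts-led cells, and without those cells 53 genes were lower.

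The Nts-led cells, 1 per pool, were the 2 deep members with fewer than 3 of the 6 endocrine genes. The cell of pool 1 had 42910 UMIs and Nts at 275 CP10K, and that of pool 2 had 72691 UMIs, the most of any member, and Nts at 34.4 CP10K. Both had no UMI of Chga, Scg2, Neurod1, Pcsk1 or Isl1 and 2 UMIs of Chgb. Cpe was found, with 15 and 9 UMIs (3.50 and 1.24 CP10K), beside 0.200 and 0.185 CP10K in remaining cells and 27.5 in the other members. Genes picked after their values were seen were high in both instead: S100a6, a calcium-binding protein, at 320 and 28.3 CP10K, the cornified-layer gene Crct1 at 35.2 and 20.2, and mesothelin (Msln) at 43.8 and 12.1. The other members had Chgb at 88.3 CP10K and S100a6 at 0.0757. Apart from Cpe, the endocrine genes checked do not bear out the label for these cells. Nts was also found in 7 of 86 deep Cck-led cells of pool 2, at up to 358 CP10K.

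Other leading hormones were rare. The Gcg-led deep cell of pool 1 had Gcg at 378, Cck at 277 and Sct at 112 CP10K. The 4 Gcg-led deep cells of pool 2 had Gcg at 152 to 1255, Cck at 103 to 1187 and Ghrl at 39.4 to 201 CP10K, so that each also carried Cck. The 2 Ghrl-led cells, both in pool 2, had Ghrl at 1482 with Cck at 460, and Ghrl at 74.1 with Cck at 11.6. A Gip-led cell of pool 2 with 17979 UMIs had somatostatin (Sst), the inhibitory hormone of D cells, at 2698 CP10K, above its hormone sum of 194 CP10K. A Cck-led cell of pool 1 with a hormone sum of 34.9 CP10K had Tph1 at 25.8, Chga at 302, Tac1 at 104 and Chgb at 947 CP10K. A further pair of pool 1 cells was alike in Chgb: a Cck-led cell with Cck at 35.6, Tph1 at 15.5, Tac1 at 131 and Chgb at 645 CP10K, and a Gip-led cell with Gip at 31.2 and Chgb at 852 CP10K. These cells were named after their values were seen.

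Between the pools, 119 of 10873 genes were higher (1.09%) and 239 lower (2.2%) in members of pool 2, at 1.5-fold or more with intervals apart. Without the 2 Nts-led cells 62 were higher and 191 lower. Among deep members these were 122 (1.13%) and 239 (2.21%) of 10803, and among Cck-led members 52 (0.511%) and 176 (1.73%) of 10176. In the remaining kept cells the shares called were 2.54% higher and 1.67% lower. Of the endocrine genes, Scg2 stood at 1214 and 1381 CPM, Cpe at 2432 and 2795, and Sct at 3092 and 2752, none of them called. Called genes of the endocrine lists were Pcsk2 and Abcc8, higher in pool 2, and Tac1, Gal, Lmx1a, Rfx3, Ptger3, Scn3a, Rab3c and Tph1, lower, beside the hormones and the genes given next. Abcc8 stood at 131 and 199 CPM (0.60), and Tac1 at 932 and 443 (-1.07). Chgb stood at 8864 and 8355 CPM and was not called, but it was higher in pool 2 among members at 50 CP10K or more, at 5754 and 8813 CPM (0.62). Among Cck-led members at that limit Chgb was not called, at 6775 and 9407 CPM (0.47). Among the hormones of the rule, Cck stood at 107684 CPM in pool 1 and 126651 in pool 2 (0.23, not called), Ghrl at 6288 and 6837 (not called), Gcg at 11264 and 18689 (0.73), Pyy at 293 and 497 (0.76), Gip at 38633 and 23674 (-0.71) and Nts at 969 and 480 (-1.01). The direction for Nts rests on the Nts-led cells, and without them the ratio was 6.74. That ratio rests on few cells too. Nts had a UMI in 4 of 99 members of pool 1 and 12 of 120 of pool 2, Nts-led cells included. In pool 2, 2 deep Cck-led cells held it at 261 and 358 CP10K. Gip-led cells were also the larger share in pool 1, and in Cck-led cells alone Gip was higher in pool 2, at 1142 and 5623 CPM (2.30), with 92.0% and 66.0% of its UMIs in 3 cells of each pool. For Gcg the ratio within Cck-led cells was 0.48, which was not called.

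Genes with the largest ratios between pools rested on few cells. Sst was higher in pool 2 with 99.9% of its UMIs there in 3 cells, and Iapp, the amyloid peptide gene, stood at 5.74 and 91.0 CPM (3.77) with 89.0% in 3 cells. Defa24 stood at 411 and 1736 CPM (2.07) with 83.1% and 66.0% in 3 cells. Reg4, a lectin of secretory cells, stood at 586 and 57.8 CPM (-3.32) with 97.8% and 73.2% in 3 cells, and Gast at 530 and 69.1 CPM (-2.92) with 73.6% and 66.4%. Both Reg4 and Defa24 reversed direction in some alternatives, given at the end. S100a6 was lower in pool 2 (-3.55), with 99.2% and 98.6% of its UMIs in 3 cells. Chga was lower (-0.68), with 57.3% of its UMIs in 3 cells of pool 1, and at 50 CP10K or more it stood at 475 and 624 CPM (0.39, not called). With the 3 highest cells of each pool left out for each gene, 123 genes were higher and 99 lower, and 139 of the 358 calls were kept. No pool difference can be assigned to melatonin.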

How the data were processed

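Single-cell 3′ RNA libraries of 1 control and 1 melatonin-treated pool of mouse small intestinal organoids were sequenced on an Illumina NovaSeq instrument, per the labels' protocols. The deposited matrices hold raw UMI counts per gene and barcode, as whole numbers made by the authors with no normalization. The submitters' processing notes name Cell Ranger 3.1.0, bcl2fastq 2.20.0 and STAR 2.7.3a; the genome build is not given in the sources used here. Of 31053 gene identifiers, 30934 matched the reference table of names. Depth per kept cell is given in the report. No clustering and no doublet caller was used; an alternative leaves out cells with genes of other types. Sums, exact Poisson and Clopper-Pearson intervals and hypergeometric thinning were computed with Python 3.11.15, numpy 2.4.6, scipy 1.17.1 and pandas 2.3.3. The calls were also run on simulated Poisson counts without spread between cells, which cannot check calls that rest on a few cells. Genes needed 10 UMIs over the classes compared. No test was run, since cells are not replicates.

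The members, gene lists and comparisons were chosen with earlier results of these data known. Genes named beyond the lists were the 20 highest and 5 lowest for members over remaining cells, the 6 highest and 3 lowest for each leading-hormone group (groups of 10 or more cells per pool) and the 8 highest and 8 lowest between pools, at 50 CPM or more and called; a selection of these is printed. Alternatives changed the hormone threshold, mitochondrial limit, gene minimum, thinning depth, pseudocount, count filter and total; those on 5000 UMIs, Nts-led cells, the 3 highest cells, single endocrine genes at 50 CP10K and members with other types' genes were added after seeing the data.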

Additional observations from a re-analysis of the deposited data

Results flagged for a closer look

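Barcodes above the mitochondrial limit were not used for the results above, and 160 of 9781 of them (1.64%, 1.39 to 1.91) met the hormone and Neurog3 rule. They are listed because the share is above the 0.0307% that a count of 0 would allow, which is a description and no test, and the hormone values are those of the rule. They were 87 of 6110 such barcodes in pool 1 and 73 of 3671 in pool 2, with medians of 2991.5 UMIs, 42.6% mitochondrial UMIs and 58.0 CP10K of the 6 hormones, and 88 of them reached 50 CP10K. Cck led 95, Gip 41, Ghrl 13, Gcg 8 and Nts 3. Their Chgb level was 28.0 CP10K and their Scg2 level 3.76 CP10K. Whether they are damaged hormone cells or carry free RNA was not tested.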

How the results depend on the processing

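The members' share of kept cells (4.30% and 6.80%) was 6.57% and 8.44% at 10 CP10K and 2.21% and 3.55% with no mitochondrial limit. In pool 1 it was 2.61% at 50 CP10K, 3.23% at 1000 genes and 3.03% at 5000 UMIs, and in pool 2 it was 9.50% at a 10% mitochondrial limit. The Cck-led share in pool 1 (64.6%) was 76.7%, 75.4% and 79.3% at 50 CP10K, 1000 genes and 5000 UMIs, and the Gip-led share (28.3%) was 17.2% at 5000 UMIs. Thinning to 5000 UMIs instead of 2000 gave 81.0% and 89.8% of members for Scg2 and 86.1% and 85.2% for Sct, and unthinned shares were 55.6% and 89.2% for Scg2 and 91.7% for Sct in pool 2. Against remaining cells, 811 genes were higher and 528 lower with a pseudocount of 10 CPM, and 2790 and 654 with the hormones left out of the total. Genes lower in Cck-led members (111) were 61 at 50 CP10K and 53 without Nts-led cells. Between pools, 62 were higher without Nts-led cells (119 with them) and 99 lower without the 3 highest cells (239). Of the named genes' values, 634 stayed the same, 38 changed their call and 11 reversed direction, all 11 between pools. Staying the same means direction and call, or direction alone for the mean of cells, where no call was made. Of the reversed values, Nts was 1.34 as the mean of cells, 6.74 without Nts-led cells and 4.11 without the 3 highest cells. Sct was 0.47 as the mean of cells. Defa24, itself among the genes that pick them, was -1.52 without cells with other types' genes. Sprr1a was -4.36 at 50 CP10K and -0.89 without Nts-led cells. At 50 CP10K Afp was 0.035 and Reg4 2.24. Reg4 was 0.19 without the 3 highest cells, and Ghrl was -0.10 at a 10% mitochondrial limit. The cause was not tested. Nts over remaining cells lost its call without Nts-led cells (0.93 in the weaker pool). Without those cells 138 of 154 calls of Gip-led members, 70 of 155 of Cck-led members and 227 of 358 between pools were kept. No paired analysis was possible because the matrix is 1 sample without replicates. Depth limits the shallow members most, where 3 UMIs meet the threshold.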
